A study of Mus musculus with 12 samples.

Results

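Distal wild type Eed summits are positions where Eed chromatin was called enriched far from every promoter window centre and every wild type H3K27me3 summit. H3K27me3 is the histone mark that Eed is best known for. Some distal summits still lay at annotated gene starts outside the windows, as given below. The distal summits were taken from the authors' list of 61019 summits of the wild type Eed library, one position per called peak. A summit was a member when it lay more than 5 kb from the centre of every promoter window of the count tables and more than 5 kb from every wild type H3K27me3 summit. This left 35617 summits, 58.4% of the list. Of the others, 23185 (38.0%) lay within 5 kb of a window centre and are called promoter-proximal below, and 2217 (3.63%) were far from every window but within 5 kb of a wild type H3K27me3 summit. The members were chosen by measured values, the called positions in the wild type Eed and H3K27me3 libraries, so their distance from windows and from wild type H3K27me3 is not a result.

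Eed belongs to the core of PRC2 (Polycomb repressive complex 2), the enzyme complex that places H3K27me3 on chromatin, and Eed itself binds the finished mark, so that the complex can spread and be maintained over repressed domains. In mammals PRC2 is found above all at CpG-rich DNA of developmental genes that are silent in the tissue. H3K27ac is carried by active promoters and enhancers, and RNA polymerase II (RNA-Pol2) marks transcribed genes. In the embryonic forebrain PRC2 is known to restrain genes of other regions and of later cell fates.

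The tissue was forebrain of mouse embryos at stage E12.5, from the C57BL/6 strain without treatment, in the genotypes EedcKO and wild type. What the EedcKO allele deletes, which driver deletes it in which cells, and how many embryos went into a library is not stated in the labels. In bulk tissue, fewer cells with a site bound and less binding per cell cannot be told apart. Each genotype had 1 library of Eed and 1 of input by X-ChIP, immunoprecipitation of cross-linked chromatin, and 1 each of H3K27ac, H3K27me3, RNA-Pol2 and IgG by CUT&Tag, where an antibody-bound transposase cuts and tags the DNA beside it. With 1 library per genotype and target there is no replicate check and no test between genotypes. Regions of 1 library are not replicates either, so no p-value is given, and intervals are exact 95% Clopper-Pearson intervals that cover counting error only.

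The promoter windows held 1446764 reads in EedcKO Eed and 1972842 in wild type Eed, and between 948955 and 3842779 over all 12 libraries. The 8 summit lists held from 671 to 61019 summits. Reads at distal positions are not given by these files, so a distal summit is known by its position and by the authors' score, a −log10 scale of peak significance. The Eed promoter window itself held 40 reads in EedcKO Eed and 121 in wild type Eed, beside 19 and 27 in the inputs of those genotypes, which does not check the deletion. The labels of the EedcKO histone libraries are open to doubt: the one labelled EedcKO H3K27ac had 10164 summits, with wild type H3K27me3 within 500 bp of 55.5% and wild type H3K27ac within 500 bp of 3.99%. The one labelled EedcKO H3K27me3 had 671, and the same shares were 12.8% and 54.5%. Both are named as labelled below, and no direction is drawn from them. As a check of the tissue, 4 of 16 forebrain regulator promoters had a wild type H3K27ac summit within 1 kb, against 0 of 10 endothelial, 0 of 10 microglia and macrophage, 1 of 10 erythroid and 1 of 10 mesenchyme and pericyte markers. Wild type H3K27me3 summits stood there at 6 of the 16 forebrain regulators and RNA-Pol2 summits at 1, so the tissue label is only weakly checked by these lists.

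Some distal summits lay at annotated gene starts more than 5 kb from every promoter window centre. In the RefSeq promoter sequences of build GRCm38.p6, which run from 250 bases before to 50 after a start, 198 promoters of 178 genes held 177 distal Eed summits. Of the 178 genes, 114 were protein-coding, and 112 had a window under the same symbol elsewhere. These promoters were rich in the dinucleotide CG: their median was 19 per 300 bases with a GC content of 64.3%, against 27 and 67.0% in the 3248 promoters that held a promoter-proximal Eed summit and 7 and 52.7% over all 32851 promoters. At least 15 CG stood in 66.7% of the promoters with a distal summit, in 91.2% of those with a promoter-proximal summit and in 34.6% of all. The motif searched was CG, which is the same on both strands. The distal Eed sites in these 198 promoters are the ones whose bases can be read here. Of the 8 named protein-coding genes among them with the highest authors' score, Kbtbd12 (63.4) and Fbrsl1 (63.1) are left out. The sequences of the other 6 are shown, picked after their values were seen. Each runs 5′ to 3′ along the gene's strand, with every CG in capitals:
Abl1: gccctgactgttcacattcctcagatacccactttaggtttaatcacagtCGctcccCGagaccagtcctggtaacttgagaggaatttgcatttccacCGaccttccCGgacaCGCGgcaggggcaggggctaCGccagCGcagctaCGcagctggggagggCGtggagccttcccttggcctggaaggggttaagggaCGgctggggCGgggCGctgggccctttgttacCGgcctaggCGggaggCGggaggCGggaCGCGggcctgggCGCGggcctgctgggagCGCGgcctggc
Tafa5: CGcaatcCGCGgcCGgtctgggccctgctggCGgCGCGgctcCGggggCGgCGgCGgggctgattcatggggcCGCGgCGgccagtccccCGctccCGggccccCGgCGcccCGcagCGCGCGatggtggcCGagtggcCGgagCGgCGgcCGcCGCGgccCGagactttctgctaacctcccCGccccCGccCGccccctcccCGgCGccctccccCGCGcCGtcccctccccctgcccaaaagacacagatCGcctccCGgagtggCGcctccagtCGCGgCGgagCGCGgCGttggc
Cdca7l: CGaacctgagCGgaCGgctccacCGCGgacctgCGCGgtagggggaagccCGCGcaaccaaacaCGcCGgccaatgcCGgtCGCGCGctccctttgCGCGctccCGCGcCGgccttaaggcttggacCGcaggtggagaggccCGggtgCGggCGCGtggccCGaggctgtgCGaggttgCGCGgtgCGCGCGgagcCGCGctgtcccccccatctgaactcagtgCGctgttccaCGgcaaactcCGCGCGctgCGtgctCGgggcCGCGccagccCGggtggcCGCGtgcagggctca
Mbnl1: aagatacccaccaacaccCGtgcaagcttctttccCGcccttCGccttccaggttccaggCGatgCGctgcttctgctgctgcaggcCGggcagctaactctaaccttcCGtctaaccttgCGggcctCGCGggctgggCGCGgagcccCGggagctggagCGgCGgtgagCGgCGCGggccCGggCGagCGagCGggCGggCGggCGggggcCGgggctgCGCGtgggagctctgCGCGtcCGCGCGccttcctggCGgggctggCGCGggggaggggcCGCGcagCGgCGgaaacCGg
Aktip: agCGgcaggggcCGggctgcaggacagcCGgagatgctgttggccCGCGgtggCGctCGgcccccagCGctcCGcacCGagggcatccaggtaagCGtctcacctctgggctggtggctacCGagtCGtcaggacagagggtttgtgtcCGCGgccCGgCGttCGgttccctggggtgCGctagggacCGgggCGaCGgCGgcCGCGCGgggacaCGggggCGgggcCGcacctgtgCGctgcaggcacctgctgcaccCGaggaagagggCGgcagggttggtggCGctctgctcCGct
Celf2: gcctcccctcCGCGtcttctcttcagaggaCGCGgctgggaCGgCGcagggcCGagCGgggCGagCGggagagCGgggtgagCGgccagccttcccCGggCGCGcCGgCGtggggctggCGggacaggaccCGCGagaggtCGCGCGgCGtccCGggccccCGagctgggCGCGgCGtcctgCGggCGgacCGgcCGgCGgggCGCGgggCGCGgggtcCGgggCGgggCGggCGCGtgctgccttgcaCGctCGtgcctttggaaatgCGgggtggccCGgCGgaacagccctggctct

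Abl1 encodes a non-receptor tyrosine kinase, and its promoter shown here (chr2:31759689-31759988, plus strand, 23 CG) held a summit of score 76.1 that was 71.6 kb from the centre of the gene's own window. A wild type H3K27ac summit and an EedcKO RNA-Pol2 summit lay within 500 bp of it. Tafa5, which encodes a secreted chemokine-like protein of the brain, had its summit 81.0 kb from its window (chr15:87624980-87625279, plus strand, 47 CG, score 75.4). Summits of wild type H3K27ac and of RNA-Pol2 in both genotypes lay within 500 bp there. Cdca7l (chr12:117843611-117843910, plus strand, 46 CG, score 65.1) had summits of EedcKO Eed and wild type H3K27ac beside it. Aktip (chr8:91133690-91133989, minus strand, 34 CG, score 64.7) had wild type H3K27ac and both RNA-Pol2 libraries beside it. Mbnl1 and Celf2 encode RNA-binding regulators of splicing. Their promoters (chr3:60500929-60501228, plus strand, 41 CG, score 64.9, and chr2:6871986-6872285, minus strand, 48 CG, score 63.2) had no summit of any of the other 6 lists within 500 bp. The CG-rich promoters with the strongest distal scores thus included both promoters with and without summits of active chromatin.

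Few distal Eed summits had a summit of another list beside them. Of the 35617, 33330 (93.6%) had no summit of any of the 6 other lists within 500 bp, 1837 (5.16%) had one of 1 list, 347 (0.974%) of 2 lists and 103 (0.289%) of 3 or more. Of the promoter-proximal Eed summits 51.0% had no such neighbour, 25.7% had 1 and 15.2% had 2. The choice of members bears on this contrast, as given below. The share without a neighbour is given neither over all wild type Eed summits nor over all genome positions that meet the distance rule. For each list alone, such positions lay near a summit less often than distal Eed summits did, as given below. Standing alone is thus not a trait of the distal summits beside the genome around them. Wild type H3K27me3 is left out of these counts, since the choice of members sets it to none. The median distance of a distal Eed summit to the nearest wild type H3K27me3 summit was 207.9 kb, and 3.80% of them lay between 5 and 10 kb from one. A summit list gives one position per peak, and whether distal Eed summits lie inside broad H3K27me3 domains was not tested. A missing H3K27me3 summit is not a missing mark. The promoter windows of 26 Hox genes held a median of 1382 wild type H3K27me3 reads, yet 3 of them had such a summit within 1 kb.

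Of the distal Eed summits, 1218 (3.42%, interval 3.23 to 3.61) lay within 500 bp of an EedcKO Eed summit, against 7.38% of all wild type Eed summits. The share was 14.6% (13.2 to 16.2) for distal Eed summits near H3K27me3 and 12.8% (12.4 to 13.2) for promoter-proximal ones. As a scale, 1.11% of the genome positions that meet the distance rule, called open positions here, lay within 500 bp of an EedcKO Eed summit. The same comparison from the other side gave a like picture: of the 39351 EedcKO Eed summits 25325 (64.4%) passed the same distance rule, and 1255 of those (4.96%) lay within 500 bp of a wild type Eed summit, against 25.4% of the 12236 EedcKO summits within 5 kb of a window centre. A wider radius took in more: 5.93% of the distal Eed summits had an EedcKO Eed summit within 1000 bp and 19.1% within 5 kb. Because the libraries differ in depth and were called one by one, a missing EedcKO summit was not a measured loss of Eed.

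Active chromatin was near few of them. A wild type H3K27ac summit lay within 500 bp of 328 distal Eed summits (0.921%, 0.824 to 1.03), against 6.80% of all wild type Eed summits, 16.2% of the promoter-proximal ones and 0.113% of the open positions. RNA-Pol2 summits of EedcKO lay near 1033 (2.90%), against 14.8% of all wild type Eed summits, 33.1% of promoter-proximal ones and 0.465% of open positions. RNA-Pol2 summits of wild type lay near 179 (0.503%), against 3.25% of all, 7.55% of promoter-proximal ones and 0.0405% of open positions. The RNA-Pol2 lists hold 25930 summits in EedcKO and 3716 in wild type, so their shares are not a comparison of genotypes. Near the library labelled EedcKO H3K27ac were 80 (0.225%, against 5.43% of all), and near the library labelled EedcKO H3K27me3 19 (0.0533%, against 0.660% of all). Of the 2217 distal summits near wild type H3K27me3, 28.5% lay near the library labelled EedcKO H3K27ac. In every one of the 6 lists the distal Eed summits had a share below both other kinds of Eed summit and above the open positions. For the library labelled EedcKO H3K27ac the choice of members largely sets the low share. Of its summits 55.5% lay within 500 bp of wild type H3K27me3, and 6.82% passed the distance rule. The choice also bears on the other lists, since few of their summits far from windows were left. The rule was passed by 64.4% of EedcKO Eed, 40.4% of EedcKO RNA-Pol2, 30.7% of wild type H3K27ac and 24.4% of wild type RNA-Pol2 summits. In the library labelled EedcKO H3K27me3, 16.5% passed it. How much of the gap to promoter-proximal summits the choice sets was not tested. For the library labelled EedcKO H3K27me3, 4 of the summits near wild type H3K27me3 had a neighbour. Their interval (0.0492 to 0.461) overlaps that of the distal summits (0.0321 to 0.0833).

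**Figure D1:**
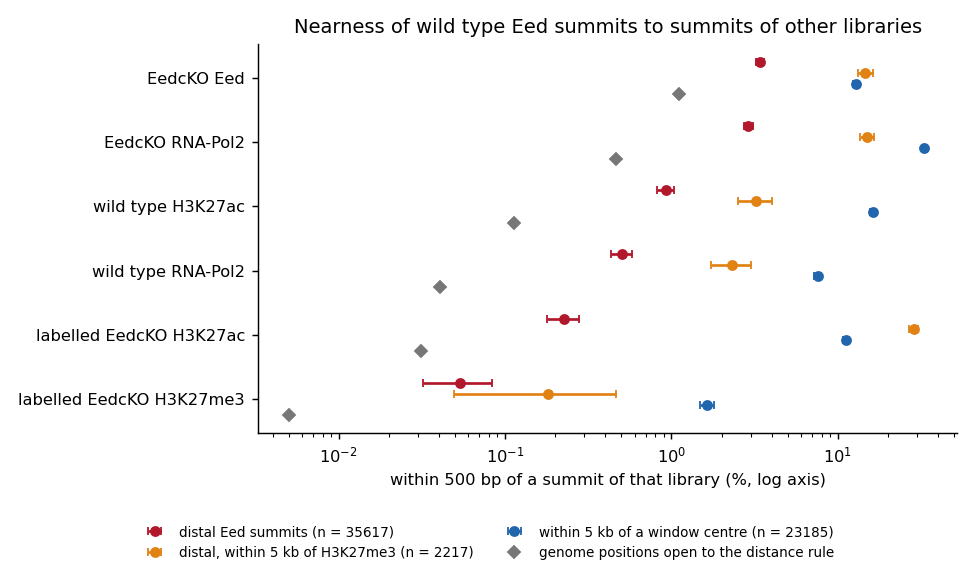
Share of wild type Eed summits within 500 bp of a summit of each other library (horizontal log axis, percent), for distal Eed summits (red), distal ones near H3K27me3 (orange) and promoter-proximal ones (blue), with exact 95% intervals, and for genome positions open to the distance rule (grey diamonds). Distal Eed summits lie between the open positions and the other Eed summits in each row, at 3.42% for EedcKO Eed and 0.921% for wild type H3K27ac. The choice of members bears on this order in every row, and most in the row labelled EedcKO H3K27ac.

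Summits of different kinds shared sites. Of the 328 distal Eed summits near wild type H3K27ac, 198 (60.4%, 54.8 to 65.7) also lay near EedcKO RNA-Pol2, against 2.37% of the 35289 that were not near H3K27ac. EedcKO Eed lay near 65 of the 328 (19.8%, 15.6 to 24.5), against 3.27% (3.08 to 3.46) of those not near H3K27ac. Of the 1033 near EedcKO RNA-Pol2, 162 (15.7%) lay near EedcKO Eed and 116 (11.2%) near wild type RNA-Pol2. The 2529 wild type H3K27ac summits that passed the same distance rule had a wild type Eed summit within 500 bp in 12.7% of cases (11.4 to 14.0), against 66.2% of the 5489 H3K27ac summits within 5 kb of a window centre.

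The authors' score of the distal summits was low within the list. Its median was 7.61 (central 50% from 5.29 to 14.3) against 25.7 (9.27 to 51.4) for promoter-proximal and 19.9 (7.67 to 44.0) for distal summits near H3K27me3. A score of at least 40 was reached by 1648 distal summits (4.63%), 8628 promoter-proximal ones (37.2%) and 628 of those near H3K27me3 (28.3%). Distal summits that had a neighbour scored higher: the median was 12.4 near EedcKO Eed and 7.32 away from it, 26.8 near wild type H3K27ac and 7.61 away from it, and 22.3 near EedcKO RNA-Pol2 and 7.32 away from it.

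The shares also differed between summits of like score. Among summits with a score under 5, EedcKO Eed lay near 1.53% of 8376 distal and 4.85% of 1937 promoter-proximal summits. Among those from 10 to 20 the shares were 3.38% of 8287 and 8.97% of 3901, and from 40 to 80 they were 10.9% of 1526 and 18.0% of 7870. At 80 and over they were 19.7% (13.0 to 27.8) of 122 and 24.7% (21.6 to 27.9) of 758, and these intervals overlap. For EedcKO RNA-Pol2 the shares were 0.704% and 6.09% under a score of 5, 19.7% and 52.2% from 40 to 80, and 15.6% and 55.3% at 80 and over. Over the distal and promoter-proximal summits the shares were higher from class to class, except that of distal summits near EedcKO RNA-Pol2, which was lower at 80 and over than from 40 to 80. In each class the distal share was below the promoter-proximal one, an order on which the choice of members bears as well.

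**Figure D2:**
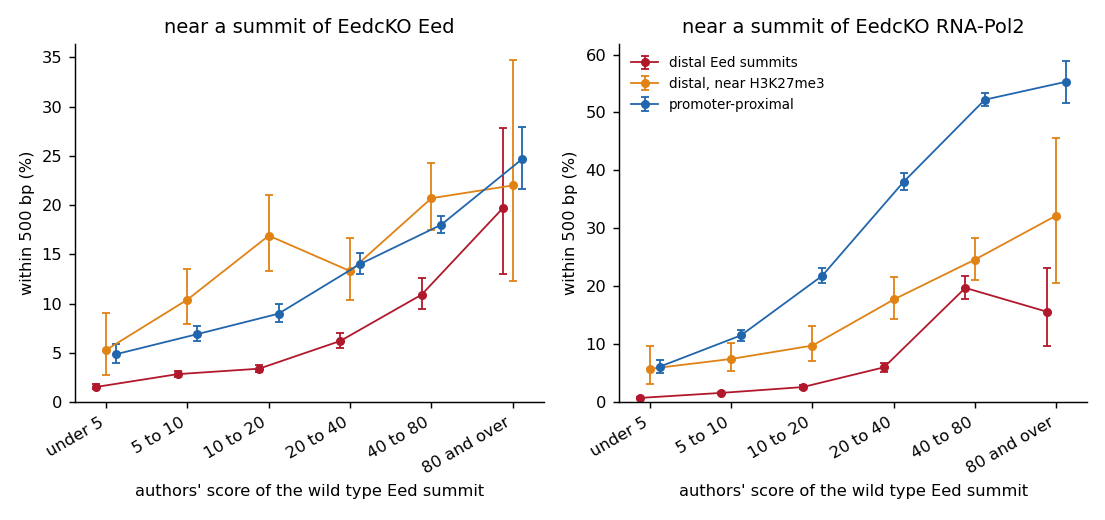
Share of wild type Eed summits within 500 bp of an EedcKO Eed summit (left) and of an EedcKO RNA-Pol2 summit (right), in percent, by class of the authors' score of the wild type Eed summit, with exact 95% intervals. In the class from 40 to 80, distal summits (red) reach 10.9% and 19.7%, below promoter-proximal summits (blue) at 18.0% and 52.2%; distal summits near H3K27me3 are orange.

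The summits next to the 5 kb limits were alike on both sides. At 5 to 6 kb from a window centre, inside the rule, 1350 summits had a median score of 8.63, and 5.11% lay near EedcKO Eed and 1.93% near wild type H3K27ac. At 4 to 5 kb, outside it, 1440 summits had 9.27, 4.38% and 2.64%. At the H3K27me3 limit, 277 summits inside had a median score of 10.3 with 8.30% near EedcKO Eed, and 262 outside had 10.2 and 8.40%.

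Gene bodies held more distal Eed summits than their length. Of the 35617, 19123 (53.7%, 53.2 to 54.2) lay inside a RefSeq gene and 16498 (46.3%) inside a protein-coding one, while 44.2% and 37.3% of the open positions did. Open positions include unsequenced gaps and 75.7 Mb of chromosome Y, which held 18 members. What these add to the contrast was not tested, here or in the shares of open positions above. Promoter-proximal Eed summits lay in a gene body in 78.6% of cases, although their places were set by the choice. The nearest window centre was 25.5 kb away at the median (central 50% from 12.6 to 55.5 kb) and at most 856.9 kb. It was 5 to 10 kb away for 17.6%, 10 to 20 kb for 23.6%, 20 to 50 kb for 30.6%, 50 to 100 kb for 16.9% and further for the rest. Of the distal summits 53.5% lay downstream of the nearest start in its direction of transcription and 46.5% upstream. Exons, introns and untranslated regions are not told apart in the gene table used here.

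Place went with the presence of other marks. Of 34309 distal summits on chromosomes whose RefSeq starts were analysed, 703 (2.05%) lay within 1 kb of a RefSeq start that is not in the windows, 17875 (52.1%) lay elsewhere in a gene body and 15731 (45.9%) outside gene bodies. The summits at RefSeq starts had a median score of 22.0, against 8.28 in gene bodies and 7.32 outside. Wild type H3K27ac lay near 16.6% (14.0 to 19.6) of them, 0.845% (0.716 to 0.990) of those in gene bodies and 0.292% (0.214 to 0.39) of those outside. EedcKO RNA-Pol2 lay near 31.9%, 3.90% and 0.515%, and EedcKO Eed near 11.0%, 4.55% and 1.84%. The 703 summits at RefSeq starts held 117 of the 314 distal summits with an H3K27ac neighbour on these chromosomes.

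**Figure D3:**
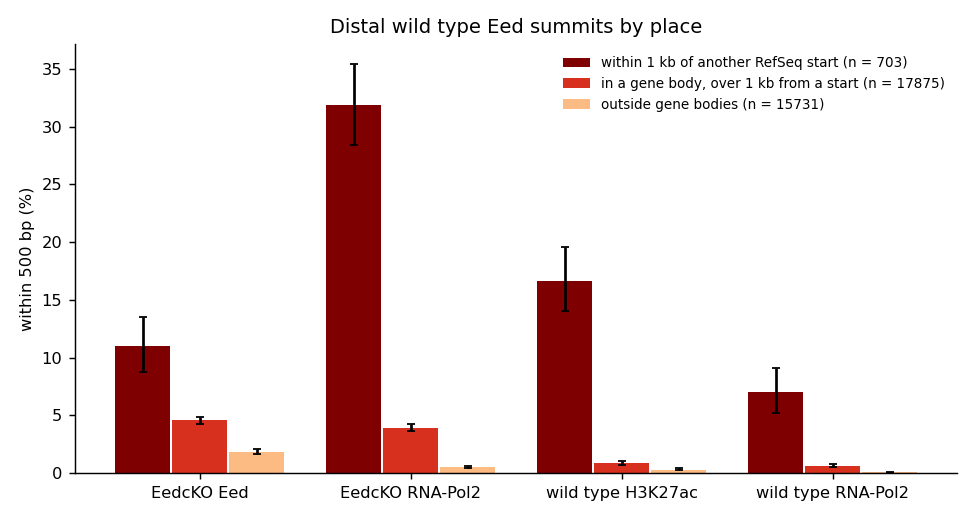
Share of distal wild type Eed summits within 500 bp of a summit of 4 other libraries (percent, bars from 0 with exact 95% intervals), split by place: within 1 kb of a RefSeq start outside the windows, in a gene body, and outside gene bodies. Bars fall in that order in all 4 libraries, for EedcKO RNA-Pol2 at 31.9%, 3.90% and 0.515%.

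The 103 distal summits near 3 or more other lists had a median score of 39.9, and 88 of them (85.4%) lay in a gene body. A RefSeq start stood within 1 kb of 48 of the 99 on analysed chromosomes. EedcKO RNA-Pol2 was among the neighbours of 101, wild type H3K27ac of 84, wild type RNA-Pol2 of 68 and EedcKO Eed of 48. Over all distal summits these shares were 2.90%, 0.921%, 0.503% and 3.42%. The counts among the 103 are raised by the choice of summits near 3 or more lists and are not a result. Both summits with 5 neighbouring lists had every list beside them but that labelled EedcKO H3K27ac. One (position 116423631 of chromosome 3, score 58.2) lay in Cdc14a, a gene for a phosphatase of cell division, 5.1 kb from its window centre and 0.44 kb from another of its RefSeq starts. The window of Cdc14a held 8 reads in wild type Eed beside 16 in wild type input. The other (position 127471798 of chromosome 7, score 25.2) lay in Prr14, 0.18 kb from a RefSeq start, with the window of Fbrs, a gene for a subunit of a variant Polycomb repressive complex 1, as the nearest at 7.4 kb. The Fbrs window held 58 reads in EedcKO Eed and 163 in wild type Eed, 588 in EedcKO and 210 in wild type RNA-Pol2.

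The next 8 in that order had 4 neighbouring lists each, and RefSeq starts within 0.5 kb of 6 of them. They lay in Arhgef7, a guanine nucleotide exchange factor (score 102, 0.17 kb from a RefSeq start of it), in Nol4l (80.3, 0.29 kb), in Map3k12, a kinase of the neuronal injury response (63.9, 0.07 kb), and in Srebf1, the regulator of lipid synthesis genes (48.6, 0.09 kb). Bola1 held one of score 28.7, 0.48 kb from a RefSeq start of it, and Mia3 one of 34.2, 0.24 kb from the start of the gene model Gm34102. The remaining ones lay in Cdk2ap1 (50.1), 2.23 kb from a RefSeq start, and outside every gene body on chromosome 7 (55.4). Of these 10 summits, 6 had an EedcKO Eed summit within 500 bp, against 3.42% of all distal summits. EedcKO Eed is one of the lists by which the 10 were picked, so this count is not a result.

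The highest scores stood at other sites. The 10 summits with the highest score had from 112 to 282, and 7 of them had no summit of another list within 500 bp, against 93.6% of all distal summits. The highest (position 169994133 of chromosome X, score 282) lay outside every RefSeq gene, and the next (position 124441770 of chromosome 9, score 152) in a gene model without a name. These and a site of score 126 on chromosome 10 (position 41040848) had an EedcKO Eed summit within 500 bp and no other neighbour. The same score of 126 stood in Pou6f1, a POU homeodomain gene, at position 100586021 of chromosome 15. Further ones lay in Rtn4rl1, a Nogo receptor homologue (chromosome 11, position 75258322, score 122), in L3mbtl3, a gene of the Polycomb-related MBT family (chromosome 10, position 26280188, score 115), and in Ppp2r2c, a brain regulatory subunit of protein phosphatase 2A (chromosome 5, position 36915531, score 115). One lay in a long noncoding RNA gene model on chromosome 2 (position 61346592, score 112), and the remaining pair, of scores 117 and 114, on chromosome 18.

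Distal Eed summits were spread over many genes rather than piled at a few. The nearest window was matched as protein-coding for 12389 (34.8%) and had no matched gene type for 10841 (30.4%), so that the coding share is a lower limit. In all, 6503 of 19896 named protein-coding genes (32.7%) were nearest to at least 1. Among those 6503 genes the median was 1 summit, 24 genes had 10 or more, and the largest number was 17. Mfap2, a gene for a microfibril protein, had these 17, with scores up to 46.5, all outside the gene of 5.6 kb, of which the distance rule left 0.6 kb to members. Pheta1 had 15, Csnka2ip and Trim32, a ubiquitin ligase gene, 14 each, and so had Zfp423, a zinc finger regulator of neural progenitors. EedcKO Eed lay near 4 of the 17 at Mfap2, 3 of the 15 at Pheta1 and none of the 14 at Zfp423, against 3.42% of all distal summits. Counts this small do not tell the genes apart, and no test was run.

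Among the 15 genes with the most nearest summits, the number inside the body varied, also between long genes. Zfp423 had 16 summits in its body (chromosome 8, 87661810 to 87962053), 5.60 per open 100 kb. Its window held 42 reads in EedcKO Eed and 364 in wild type Eed, 193 and 77 in RNA-Pol2, and 20 and 27 in input. Rora, a nuclear receptor gene, held 25 summits in 734.8 kb, 3.64 per open 100 kb, and its window 61 reads in EedcKO Eed and 188 in wild type Eed. Arhgef10l held 12 in 151.5 kb (8.19), Plxdc2 12 in 405.4 kb (3.01) and Nckap5 22 in 917.2 kb (2.50). Csnka2ip held 4 in 124.5 kb (3.34). The window of Ajap1, an adherens junction gene, held 283 wild type Eed and 453 wild type H3K27me3 reads, and 4 distal summits lay in its 110.6 kb. Kcnab2, a potassium channel subunit gene, Ap5z1, Edn2, a gene for an endothelin, and Rflna were nearest to 11 or 12 summits each with at most 4 inside the body. Wild type Eed reads ranged from 7 at Csnka2ip to 364 at Zfp423, beside 11 and 27 in input.

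Gene lists of the forebrain and of Polycomb were chosen with earlier results of these data known, and their counts are a description beside the 32.7% of all coding genes. At least 1 distal summit had a member as its nearest window for 7 of 16 forebrain regulators, 11 of 18 cortical neuron genes and 6 of 16 ventral forebrain and interneuron genes. The same held for 10 of 18 midbrain, hindbrain and spinal cord regulators, 12 of 20 non-neural lineage regulators, 19 of 34 axon guidance and adhesion genes and 16 of 25 synapse and channel genes. It held for 4 of 26 Hox genes, 8 of 28 Polycomb subunit genes and 3 of 30 ribosomal protein genes. Of the cell type markers it held for 9 of 10 endothelial, 2 of 10 microglia and macrophage, 4 of 10 erythroid and 6 of 10 mesenchyme and pericyte genes. These counts are not per length: the Hox genes, for example, had 0.039 Mb of open body in all.

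Per open length of gene body the lists also differed. Cortical neuron genes held 68 distal summits in 2.297 Mb of open body, 29.6 per Mb, Polycomb subunit genes 24 in 0.795 Mb (30.2) and forebrain regulators 11 in 0.536 Mb (20.5). Non-neural lineage regulators held 17 in 0.44 Mb (38.6) and midbrain, hindbrain and spinal cord regulators 11 in 0.382 Mb (28.8). The long axon guidance and adhesion genes held 332 in 24.446 Mb (13.6) and synapse and channel genes 198 in 13.985 Mb (14.2). Ventral forebrain and interneuron genes held 4 in 0.364 Mb (11.0). Of the cell type markers, microglia and macrophage genes held 10 in 0.244 Mb (41.0), endothelial genes 18 in 0.735 Mb (24.5) and mesenchyme and pericyte genes 5 in 0.208 Mb (24.1), so markers of other cell types were in the same range as neural and Polycomb genes. Over all protein-coding gene bodies the density was 19.8 per open Mb, near that of the forebrain regulators, and over all open positions 15.9. In single genes, Bcl11b, a regulator of corticospinal neurons, was nearest to 5 distal summits with scores up to 107, and Tbr1, a regulator of deep-layer neurons, to 5 with scores up to 62.6. Dlx2, a regulator of interneurons, was nearest to 3 with a median score of 32.0. Among Polycomb genes Cbx8 was nearest to 4 with a median of 40.9, Cbx7 to 4 with a median of 8.52 and Suz12, a PRC2 subunit, to 3 with a median of 3.87. Among long neuronal genes Dlgap1 held 17 in its body (2.09 per open 100 kb), Cntn4 15 (1.47) and Csmd1 22 (1.41), with median scores between 5.09 and 6.40 for those nearest to them.

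Across genes, bodies of genes with the most reads at the promoter held more distal Eed summits per length than those with the fewest, also in the controls. The 7397 protein-coding genes with at least 20 kb of open body were ranked by promoter reads of a library and cut into 4 groups of 1849 or 1850 genes. From the lowest to the highest group by wild type RNA-Pol2 reads, the density was 14.4, 18.5, 19.7 and 22.5 per open Mb. By wild type H3K27me3 it was 13.7, 17.8, 19.9 and 21.2, by H3K27ac 15.6, 19.1, 19.5 and, in the highest group, 3263 summits in 162.8 Mb, and by wild type Eed 17.1, 16.6, 18.5 and 21.4. The controls moved the same way: by wild type input reads the density was 15.9, 18.4, 19.5 and 20.2 and by IgG 17.6, 17.6, 18.5 and 20.1. The part of what input measures in the other gradients was not tested.

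**Figure D4:**
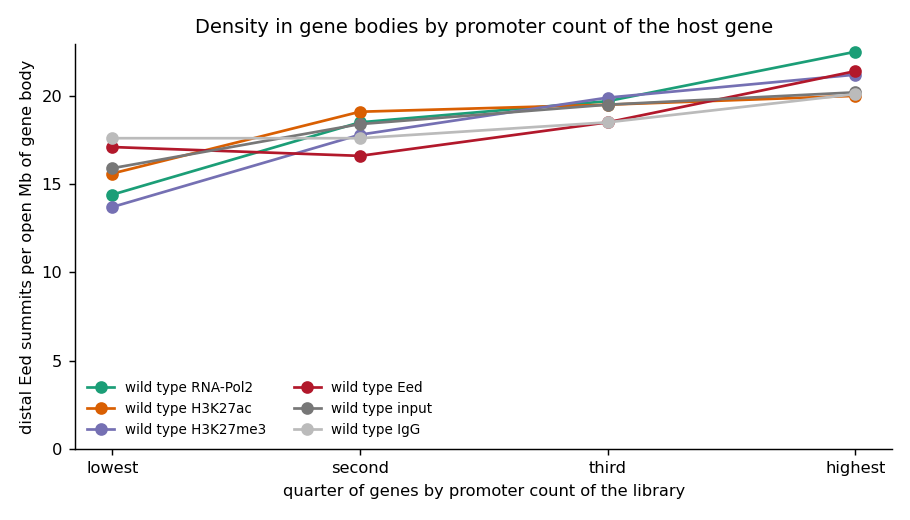
Distal wild type Eed summits per open Mb of gene body (vertical axis from 0) for 7397 protein-coding genes in 4 groups of near equal number ranked by the promoter reads of a wild type library (horizontal axis), 1 line per library. Ranking by RNA-Pol2 goes with 14.4 to 22.5 per Mb, and ranking by input with 15.9 to 20.2 per Mb.

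Along the genome the density of distal Eed summits went with gene density. In bins of 1 Mb with 0 to 4 windows there were 8.37 per open Mb, with 5 to 9 windows 13.0, with 10 to 19 windows 14.7, with 20 to 39 windows 19.2 and with 40 or more 26.8. The bin with the most (chromosome 8, 120000001 to 121000000) held 61, 84.7 per open Mb, around Gse1, Irf8 and Cox4i1. The next (chromosome 5, 142000001 to 143000000) held 60, around Actb, Foxk1 and Fscn1. Chromosome 4 had 54 between 141000001 and 142000000, where Mfap2 and Epha2 lie, a higher 89.2 per open Mb. It also had 53 between 152000001 and 153000000, where Kcnab2 and Chd5 lie. Chromosome 12 had 53 between 112000001 and 113000000, around Akt1 and Jag2. The median of 2648 bins with at least 500 kb open was 13, and 159 of them (6.00%) held none. Unsequenced gaps were not removed from the open length. Chromosome Y, with 18 distal summits in 75.7 open Mb, was included. Neither the class with the fewest windows nor the bins without a summit can therefore be read as gene-poor sequence alone. A distal summit had another within 20.6 kb at the median, and 5.34% had one within 1000 bp.

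Autosomes were alike and chromosome X stood apart. The 19 autosomes held 34729 distal summits, 17.2 per open Mb, with single autosomes between 14.4 on chromosome 14 and 19.6 on chromosome 4. Chromosome X held 870, 5.88 per open Mb, and chromosome Y 18, 0.238 per open Mb. Wild type Eed summits outside the rule were also sparse on X, with 3.85 per Mb against 6.83 to 16.8 on the autosomes. Distal summits on X had a median score of 7.32, against 7.61 on autosomes, and were fewer per open Mb in each score class up to 80, for example 2.75 against 6.48 from 5 to 10 and 0.162 against 0.744 from 40 to 80. In coding gene bodies with at least 20 kb open the density was 7.11 per open Mb on X and 19.1 elsewhere. Of the EedcKO Eed list 0.269% of summits lay on X, and of the wild type Eed list 2.50%, the highest share of the 8 lists. The other lists had from 0.377% in wild type RNA-Pol2 to 1.16% in EedcKO RNA-Pol2, so few summits on X were not particular to Eed. The lists differ in depth, and their shares are not a comparison of genotypes. Window reads on X were 1.96% of all in EedcKO Eed and 2.07% in wild type Eed, and 22789 of 948955 reads in EedcKO input and 26894 of 1018763 in wild type input. The sex of the embryos is not stated in the labels.

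**Figure D5:**
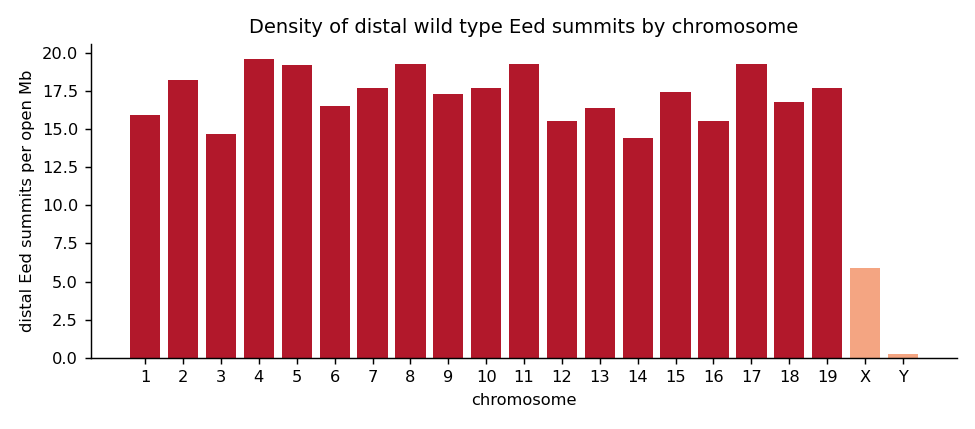
Distal wild type Eed summits per open Mb (vertical axis from 0) on each chromosome, autosomes in dark and sex chromosomes in light red. Autosomes lie between 14.4 and 19.6, X at 5.88 and Y at 0.238.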

How the data were processed

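Build mm10 and the tools ChIPseeker 1.22.1, MACS2 2.2.7.1, Bowtie2 2.4.1 and deepTools 3.4.0 are listed per the submitters' processing notes, with no roles; read filters are not stated. The deposited promoter tables, named for RPKM, hold whole-number read counts in 55385 windows, of which 55383 span 2 kb. The deposited summit lists, 1 per antibody library, give a position and the authors' score on a −log10 scale, whether of p-values or q-values being unknown; it was used only within a list.

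Distances were computed in Python 3.11.15 (numpy 2.4.6, pandas 2.3.3, scipy 1.17.1), with functions tested on simulated positions. Nearness meant 500 bp between summit positions. Open positions are those more than 5 kb from every window centre and every wild type H3K27me3 summit, 2238.1 of 2722.3 Mb; a chromosome ends at the last annotated or called position, and unsequenced gaps were not removed. Gene bodies and types came from the RefSeq table of GRCm38.p6, the same primary assembly as mm10, matched by symbol for 39239 windows. The 1308 distal summits on chromosome 18 were not analysed for RefSeq starts. Named genes were, by rule, the 15 coding genes nearest to the most members, the 10 members with the highest score and the 10 near the most lists. Up to 4 genes per list and the 5 bins with the most members were added, all described here in part. Members and lists were chosen with earlier results of these data known; splits by RefSeq start, by score class and by promoter reads, and the promoters shown, were added after the values were seen. The alternatives tried were other distances and radii, a minimum score, coding windows alone and leaving out chromosome Y.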

Additional observations from a re-analysis of the deposited data

How the results depend on the processing

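The number of distal Eed summits, 35617, became 41467 with a distance of 2 kb, 28778 with 10 kb, 40914 with coding windows alone and 35599 without chromosome Y; with a score of at least 10 it was 13776, since fewer summits enter. The share near an EedcKO Eed summit, 3.42%, was 3.85% at 2 kb, 2.88% at 10 kb and 5.15% with a score of at least 10, and 1.76% and 5.93% with a radius of 200 and 1000 bp. The share near a wild type H3K27ac summit, 0.921%, was 1.12% at 2 kb, 0.716% at 10 kb, 1.91% with a score of at least 10, 1.16% with coding windows alone, and 0.469% and 1.39% with a radius of 200 and 1000 bp. The share inside gene bodies, 53.7%, was 55.1% at 2 kb, 52.1% at 10 kb, 60.9% with a score of at least 10 and 54.5% with coding windows alone. Other causes of these moves were not tested. No paired analysis was possible because each genotype has 1 library per target. Limits: no replicates, no reads at distal positions, summit lists of unequal depth, and one start per gene in the windows.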
